A study of Mus musculus with 2 samples.

Results

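Chromosome 8 is described here through all of its windows of 50 kb in a table of promoter contacts that were counted separately on each parental allele in embryonic stem (ES) cells of a hybrid mouse. The members were chosen by chromosome alone and number 2382 of the 43941 windows measured on chromosomes 1 to 19, and they cover 119.1 Mb of the mm10 assembly. The chromosome was picked out because its balance between the alleles lay closer to the Cas allele than on most other chromosomes. That balance is therefore given as a description with no test. The cells were the female line F121-6, whose cross is labelled 129 by cas, so each cell carries a chromosome set of the 129 strain and a set of Mus castaneus (Cas). They were grown in medium with serum and LIF on mouse embryonic fibroblasts inactivated with mitomycin C, and the labels name no step that removed the feeders. Only this line was measured, in 2 samples labelled replicates 1 and 2. Each allele has a single value pooled over both, so the spread between replicates is unknown, and separate cultures are not named in the labels.

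Promoter Capture Hi-C joins DNA ends that lie close together in the nucleus and then pulls out, with RNA baits, the joined fragments that hold a promoter. In a hybrid cell, sequence differences between the strains show which parental copy a contact came from, so both copies are compared inside the same nucleus. ES cells keep many developmental genes silent but poised, and promoters and distant enhancers are brought together by looping within domains bounded by the protein CTCF. Mouse chromosome 8 is telocentric, with its centromere at the low coordinates, and carries E-cadherin, the Iroquois domain, carboxylesterase and defensin clusters and several very long neuronal genes.

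Promoters of 4 genes that have a body or start in a called window are shown first, since promoters were the target of the capture. They were chosen after the values were seen, with Zfp868 as the named gene towards Cas, and other genes of called windows are not shown. The sequences are from RefSeq on GRCm38.p6, the same assembly as mm10, and run from 250 bases before to 50 bases after a start site, 5′ to 3′ on the strand of the gene. Capitals mark CG dinucleotides and the HindIII site AAGCTT, which is the site at which the chromatin was cut and reads the same on both strands. Phkb, which encodes the beta regulatory subunit of phosphorylase kinase (chr8:85840738-85841037, plus strand), and Itfg1, a membrane protein gene (chr8:85840900-85841199, minus strand), face away from each other with start sites 39 bases apart. They share 138 bases of the stretches shown and lie in a window with 5124 interactions on 129 and 468 on Cas. Zfp868, a zinc finger gene, has 2 listed starts (chr8:69625126-69625425 and chr8:69625499-69625798, minus strand) in a window with 1072 interactions on 129 and 1988 on Cas. Myo16, an unconventional myosin gene (chr8:10153661-10153960, plus strand), starts 2 windows before the window of its body with the largest ratio on the chromosome.
Phkb: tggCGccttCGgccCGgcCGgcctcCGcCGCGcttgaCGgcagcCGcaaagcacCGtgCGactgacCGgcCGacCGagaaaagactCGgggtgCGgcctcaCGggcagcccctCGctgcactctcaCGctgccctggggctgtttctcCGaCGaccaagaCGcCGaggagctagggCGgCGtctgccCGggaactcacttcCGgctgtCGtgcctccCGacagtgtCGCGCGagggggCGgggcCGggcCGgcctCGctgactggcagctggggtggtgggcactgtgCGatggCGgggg
Itfg1: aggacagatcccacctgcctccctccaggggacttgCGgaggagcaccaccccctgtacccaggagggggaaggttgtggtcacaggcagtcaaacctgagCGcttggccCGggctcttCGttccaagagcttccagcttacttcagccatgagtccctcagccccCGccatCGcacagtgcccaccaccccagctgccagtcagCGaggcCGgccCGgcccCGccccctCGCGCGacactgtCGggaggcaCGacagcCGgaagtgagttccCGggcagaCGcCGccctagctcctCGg
Zfp868, first start: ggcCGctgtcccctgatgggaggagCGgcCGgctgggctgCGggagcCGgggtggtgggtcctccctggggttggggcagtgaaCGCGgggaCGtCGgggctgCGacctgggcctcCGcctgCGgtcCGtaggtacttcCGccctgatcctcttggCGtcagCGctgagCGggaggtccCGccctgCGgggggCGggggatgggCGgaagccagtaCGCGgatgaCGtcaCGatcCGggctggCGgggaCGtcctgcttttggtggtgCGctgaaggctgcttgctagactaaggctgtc
Zfp868, second start: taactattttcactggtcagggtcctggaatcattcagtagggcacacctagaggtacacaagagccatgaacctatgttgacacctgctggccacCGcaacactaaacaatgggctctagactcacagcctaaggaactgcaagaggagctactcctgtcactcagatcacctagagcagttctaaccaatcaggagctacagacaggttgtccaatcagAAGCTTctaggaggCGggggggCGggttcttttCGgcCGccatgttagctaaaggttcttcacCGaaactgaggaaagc
Myo16: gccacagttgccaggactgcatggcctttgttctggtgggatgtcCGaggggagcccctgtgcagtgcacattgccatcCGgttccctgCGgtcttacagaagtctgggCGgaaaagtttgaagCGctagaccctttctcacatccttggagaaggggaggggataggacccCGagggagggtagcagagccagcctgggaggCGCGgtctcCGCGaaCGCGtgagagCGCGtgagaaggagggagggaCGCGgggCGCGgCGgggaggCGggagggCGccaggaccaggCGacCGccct
The Phkb stretch holds 38 CG dinucleotides, that of Itfg1 20, those of Zfp868 29 and 6 and that of Myo16 23. The median over 867 promoters of protein-coding genes on chromosome 8 was 16, and over 19196 on the other 18 chromosomes it was 13. The HindIII site was found in the stretch of the second Zfp868 start alone among the 5 shown. It was present in 49 of the 867 stretches on chromosome 8 (5.65%) and in 6.60% of all 20063 stretches of the same length.

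The 129 allele still held the larger part of the contacts of chromosome 8, with 2534080 interactions against 2000417 on Cas. This is a 129 share of 55.9% (exact Clopper-Pearson 95% interval 55.84 to 55.93%, for counting error only), against 57.7% over the other 18 chromosomes together. Across the 19 chromosomes the share was lower on chromosome 14 alone (55.3%) and highest on chromosome 10 (61.1%). Interactions may not be independent molecules, since both ends of a contact may add to the counts. How contacts were counted per window was not given in the sources used here. Its 129 count differed by -80601 interactions from what the share of the other 18 would give, or by -1.78% of its total. Cas outnumbered 129 in 372 of 2376 windows with 10 or more interactions on chromosome 8 (15.7%), while on the other chromosomes this was so in 7.56% of windows.

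The shift ran through the whole range of windows. For each window the ratio log2((129 + 1)/(Cas + 1)) was taken relative to its median over all autosomal windows, and a value below 0 means a balance closer to Cas than in the median window. The median window of chromosome 8 lay at -0.11, beside -0.12 on chromosome 14, while the other 17 medians ran from -0.08 on chromosome 18 to 0.24 on chromosome 10. The quartiles of chromosome 8 were -0.32 and 0.11. Its upper quartile, its 90th percentile (0.36) and its 95th percentile (0.57) were the lowest of all 19 chromosomes, and its 5th percentile (-0.70) was the second lowest after that of chromosome 14 (-0.80). The ratio was below 0 in 1529 windows, or 64.4%, the highest share of any chromosome, followed by 63.5% on chromosome 14. The width between quartiles, 0.43, lay within the range of the other chromosomes (0.33 to 0.50).

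**Figure D1:**
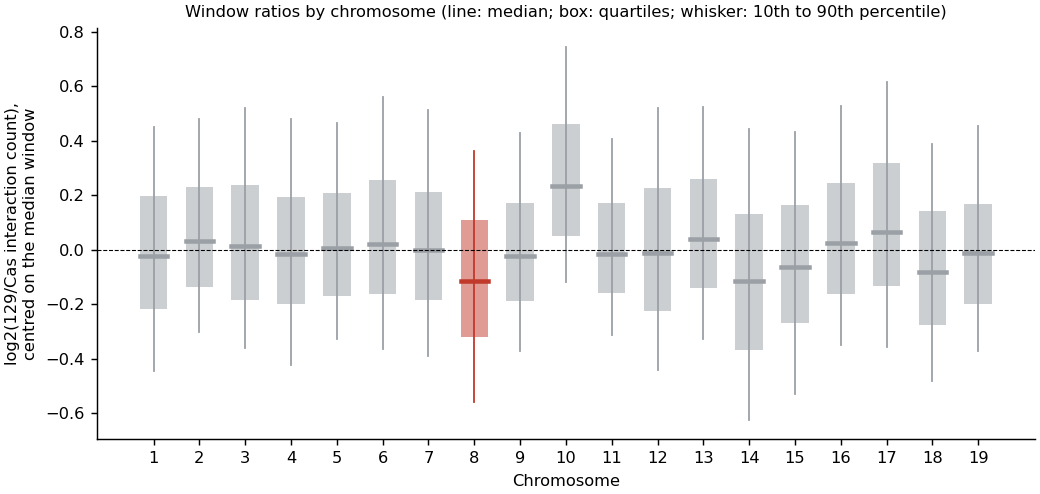
Centred log2 ratio of 129 to Cas interaction counts in windows of 50 kb, by chromosome. Lines are medians, boxes quartiles and whiskers the 10th to 90th percentiles; the box of chromosome 8 (red) spans -0.32 to 0.11, with its median at -0.11.

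The profile along the chromosome was uneven. Bins of 10 Mb gave medians below 0 in 12 of 13 cases, against 119 of 239 bins elsewhere (49.8%). The exception was the bin from 110 to 120 Mb, at 0.05 with a 129 share of 58.2%. The lowest bins were 30 to 40 Mb, with a median of -0.34 and 131133 interactions on 129 against 124839 on Cas (share 51.2%, 95% interval 51.0 to 51.4%), and 80 to 90 Mb, with a median of -0.28 and a share of 54.0%. Only 3 of the 239 bins on other chromosomes had a median below that of 30 to 40 Mb, the lowest being -0.37 on chromosome 14. Other bins had medians near 0: 10 to 20 Mb had a median of -0.0017 and a share of 57.7%, 20 to 30 Mb had -0.02 and 57.8%, and 60 to 70 Mb had -0.03 and 56.7%. The remaining medians were -0.18 before 10 Mb, -0.17 from 40 Mb, -0.07 from 50 Mb, -0.17 from 70 Mb, -0.21 from 90 Mb, -0.07 from 100 Mb and -0.11 from 120 Mb. The 3 bins furthest below the share of the other chromosomes (30 to 40, 80 to 90 and 70 to 80 Mb) held 21.9% of the contacts of chromosome 8 and 54.1% of its net difference. Without them the share of the rest was 56.6%.

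Ratios of adjoining windows were weakly correlated on chromosome 8. Over 2325 adjoining pairs the Pearson correlation was 0.284, against 0.069 to 0.283 on the other chromosomes. It is given with no p, since a contact between neighbours may enter both counts.

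**Figure D2:**
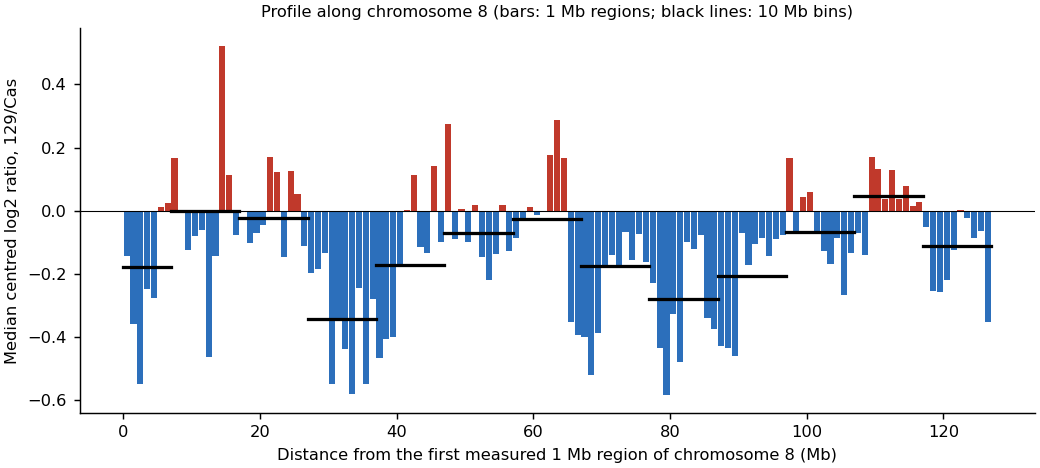
Median centred log2 ratio of the windows in each 1 Mb region of chromosome 8, against distance from its first measured region, with medians of 10 Mb bins as black lines. Blue regions lie below 0, and the 10 Mb lines run from -0.34 to 0.05.

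In regions of 1 Mb the median ratio was below 0 in 94 of 126 cases, and these regions were grouped into long stretches. A run of 32 adjoining regions, from 68 to 100 Mb, stayed below 0, and a second run of 15 regions covered 29 to 44 Mb. The longest run on any other chromosome had 16 regions. The run of 32 regions held 643331 interactions on 129 and 547213 on Cas (129 share 54.0%), with 460 of 594 windows below 0 and a median of -0.23. The run of 15 regions held 204474 and 195043 (51.2%), with 243 of 289 windows below 0 and a median of -0.35. The runs together made up 85.7% of the net difference of the chromosome. In the remaining 1498 windows the share was 57.3% and the median -0.04. These runs were found in the same ratios that they describe, so the contrast between them and the rest is no separate evidence. Windows without a protein-coding gene made up 54.3% of the run from 29 Mb, 44.2% of the run from 68 Mb and 43.5% of the rest.

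Cas had more interactions than 129 in 12 of the 126 regions of 1 Mb on chromosome 8 (9.52%) and in 59 of 2242 elsewhere (2.63%). The region from 82 to 83 Mb, which holds part of Inpp4b, a phosphoinositide phosphatase gene, the cytokine gene Il15, Zfp330 and Rnf150, had 11530 interactions on 129 and 12406 on Cas (129 share 48.2%, 95% interval 47.5 to 48.8%). All 20 of its windows were below 0, between -1.04 and -0.10. The region from 33 to 34 Mb, with the RecQ helicase gene Wrn and the glutathione reductase gene Gsr, had 17419 and 18522 (48.5%). The region from 15 to 16 Mb, with Arhgef10, Kbtbd11, Myom2 and the low-coordinate end of Csmd1, had 15711 and 18414 (46.0%). In the opposite direction, the region from 17 to 18 Mb, with the high-coordinate end of Csmd1, had 12003 and 4962 (70.8%), and a gene-free region from 50 to 51 Mb had 5276 and 2190 (70.7%). The region from 66 to 67 Mb, with Marchf1 and the neuropeptide Y receptor genes Npy1r and Npy5r, had 24643 and 13075 (65.3%). A beta-binomial test against the autosomal share, which allows for the spread between regions, with Benjamini-Hochberg adjustment over 2368 regions, called 2 regions of chromosome 8 and 0.422% of all regions (0.253% higher on 129 and 0.169% on Cas). These were, by that beta-binomial test, 17 to 18 Mb (adjusted p = 0.033) and 50 to 51 Mb (adjusted p = 0.037), both higher on 129. The beta-binomial adjusted p of the 3 regions towards Cas were 0.125 (from 15 Mb), 0.420 (from 82 Mb) and 0.480 (from 33 Mb). Some of these values rested on the called windows of 50 kb inside the regions. With the 25 called windows of chromosome 8 left out, which was tried after seeing the data, neither region was called. The 129 share was then 65.6% from 17 Mb (beta-binomial adjusted p = 0.565), 62.9% from 50 Mb (beta-binomial adjusted p = 0.999), 61.0% from 66 Mb and 48.6% from 15 Mb. The regions from 82 and 33 Mb held no called window and kept their counts.

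The difference from the other chromosomes was present in each kind of window. These groups divide the same counts for which the chromosome was picked out, so they are no separate evidence. In 1071 windows without a protein-coding gene the 129 share was 56.5% on chromosome 8 and 58.4% elsewhere. In 944 windows with 1 gene it was 56.1 and 57.7%, and in 361 windows with 2 or more it was 55.3 and 57.3%. Sorted into 5 groups by summed count, the gap was widest in the lowest group (10 to 421 interactions), at 55.8% against 59.4%, and narrowest in the highest (3497 to 35344), at 55.8% against 57.4%. On the other chromosomes the share thus fell with rising count from 59.4 to 57.4%, whereas on chromosome 8 it lay between 55.8 and 56.6% in all 5 groups. Sorted into 4 groups by the mean distance of both alleles, the share of chromosome 8 minus that of the others was -2.00 percentage points at the shortest distances, -1.51 and -0.99 in the middle groups and -3.05 at the longest. The median ratio of chromosome 8 was lower than that of each other chromosome in windows without a gene and with 2 or more genes, in the lowest and both highest groups by count, and at the shortest and longest distances. In the other 5 groups between 1 and 3 chromosomes were lower, chromosome 14 in each case.

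**Figure D3:**
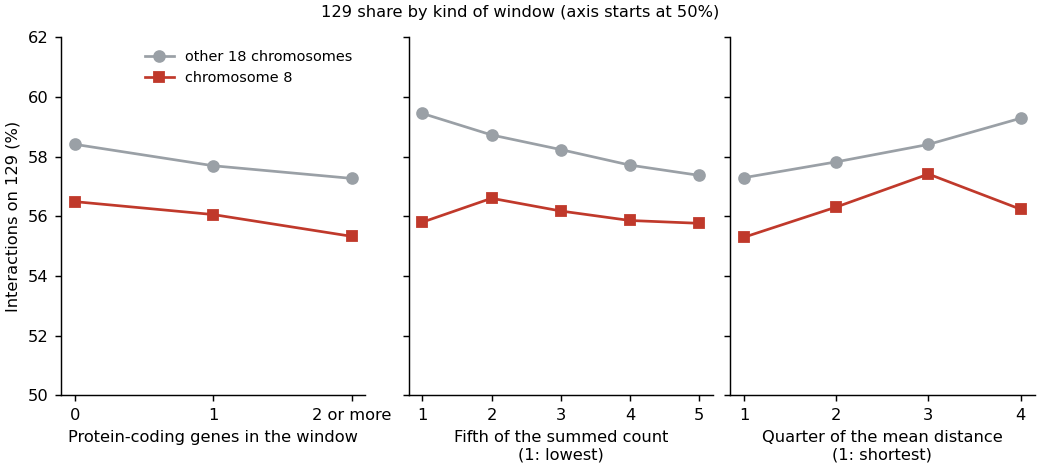
Share of interactions on 129 (percent, axis from 50%) in chromosome 8 (red) and the other 18 chromosomes (grey), for windows sorted by number of protein-coding genes, by summed count and by mean interaction distance. The red points lie below the grey ones in all 12 classes, by differences of -3.64 to -0.99 percentage points.

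Single windows with a strong imbalance were found in both directions. The beta-binomial test, adjusted over 43762 windows, called 25 windows of chromosome 8, or 1.05%, against 0.944% of all windows. The calls were 16 towards 129 and 9 towards Cas, where the background was 0.727% and 0.217% of all windows. Since the members were chosen on this contrast, nothing is read from these counts. With the share of chromosome 8 itself as the null value, 22 windows were higher on 129 and 6 on Cas. An exact binomial test, which allows for counting error only, called 389 and 895, with 51.4% of all windows called, 27.1% higher on 129 and 24.3% on Cas. The windows higher on 129 had a median of 2602 interactions and 11 of the 16 held a protein-coding gene. Those higher on Cas had a median of 318, and 3 of the 9 held such a gene. Over all windows of chromosome 8 the median was 922 interactions, and 45.0% held no protein-coding gene. With so few called windows, nothing is read from this contrast.

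The largest ratio was in the body of Myo16 (10250001 to 10300000), with 2480 interactions for 129 and 157 for Cas, or a 129 share of 94.0% (93.1 to 94.9%), a centred log2 ratio of 3.52 and a beta-binomial adjusted p of 2.1e-11. The windows on either side had much smaller ratios, 0.41 and 0.39, though these were still above the 90th percentile of the chromosome (0.36). The window of the Myo16 start shown above had 382 and 247. A gene-free window from 50550001 had 1614 and 106 (3.46). It lies in the called region of 1 Mb, preceded by windows at 1.73 and 1.03 and followed by a window at 0.12. The shared start of Phkb and Itfg1 (85800001 to 85850000) had 5124 and 468 (91.6%, 90.9 to 92.3%; ratio 3.00, beta-binomial adjusted p = 4.9e-09). The windows next to it, in Itfg1 and in Phkb, had 740 against 391 and 728 against 412, with ratios of 0.47 and 0.37. Near by, a window of Neto2, which encodes an auxiliary subunit of kainate receptors (85650001 to 85700000), had 3472 and 656 (1.95), while the window after it had 2936 and 2412 (-0.17). Each of these windows holds a listed Neto2 start, with 0 CG dinucleotides in the first stretch and 36 in the second. The called windows of Phkb and Neto2 lie in the run from 68 to 100 Mb whose median was below 0.

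Further windows higher on 129 lay in Nlrc5, which encodes a regulator of major histocompatibility complex class I genes (94400001 to 94450000), with 3299 and 491 (2.29), and at the arylamine acetyltransferase genes Nat2 and Nat3 (67500001 to 67550000), with 1737 and 307 (2.04). Windows without a gene from 66800001 and 18250001 had 3229 against 320 and 1969 against 245. Csmd1, which encodes a large membrane protein with complement-control repeats, had 2 called windows, from 16150001 (2160 and 407) and from 17500001 (4618 and 1087). Of the 34 windows that Csmd1 overlaps, 16 were below 0 and 18 above, from -0.67 to 1.95. Nat2 and Nat3 are close relatives, and how reads of such copies were assigned was not given in the sources used here.

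Towards Cas, most of the largest called windows with 100 or more interactions held no protein-coding gene. A gene-free window from 52950001 had 43 interactions on 129 and 133 on Cas (-2.06), and another from 15200001 had 1130 and 2972 (-1.85, beta-binomial adjusted p = 0.00053). The window from 89550001 had 516 and 1235 (-1.71), from 51900001 81 and 171 (-1.52) and from 7150001 119 and 238 (-1.45). Zfp868 was the only gene among them that carries a name of its own, with 1072 and 1988 (35.0% on 129, 33.3 to 36.8%; ratio -1.34, beta-binomial adjusted p = 0.0495), close to the threshold. Adjoining windows from 55450001 and 55500001, with 37 against 95 and 94 against 224, hold 5 gene models known only by number. The window before them had 6 and 42, and the 3 windows together form the only chain of called windows towards Cas on the chromosome. Of the gene models, Gm51595 and Gm51596 have identical stretches of 300 bases around their starts. How reads of such copies were assigned was not given in the sources used here. With a separate estimate of spread in each quartile of the count, 4 of the 16 windows named by rule no longer passed. All 4 were towards Cas, with 132 to 357 interactions, and they included the adjoining windows from 55450001 and 55500001. The beta-binomial adjusted p of the 4 windows were then 0.156 to 0.404.

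Contact distances showed no common shift over the chromosome, and the longer allele varied from region to region. The table gives a distance for each allele and window, which was read as bp, and the way it summarises contacts was not given in the sources used here. Where both alleles had at least 10 interactions, which held for 2374 windows, the median was 390 kb for 129 and 409 kb for Cas. The other chromosomes ran from 211 to 478 kb and from 222 to 468 kb. The median log2 ratio of the distances was 0. The 129 allele had the longer distance in 1154 windows, Cas in 1172 and neither in 48. A difference of at least 2-fold was found in 203 windows towards 129 (8.55%) and in 216 towards Cas (9.10%), both within the range of the other chromosomes (4.35 to 10.3% and 6.74 to 10.8%). No test is possible with a single distance per allele and window. In the run from 29 Mb the medians were 976 kb for 129 and 921 kb for Cas, and in the run from 68 Mb 351 and 342 kb. In the rest of the chromosome they were 367 kb for 129 and 387 kb for Cas. Over bins of 10 Mb the median log2 ratio of the distances, 129 over Cas, ran from -0.13 beyond 120 Mb to 0.12 before 10 Mb.

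Where counts were most unequal towards 129, the distances on the alleles did differ. In the 16 windows called higher on 129 the distance was longer on Cas in 14, with medians of 125 kb on 129 and 592 kb on Cas. At the shared start of Phkb and Itfg1 it was 95.5 kb on 129 and 810 kb on Cas, and in the Phkb window after it 30 and 869.5 kb. The gene-free window from 50550001 had 132 kb on 129 and 10905 kb on Cas, a distance 82.6 times as long on the allele with 106 interactions. The first called Csmd1 window had 61 and 675.5 kb, whereas the second had 68 and 29 kb. In the 8 windows called higher on Cas that had enough counts for a distance, 5 were longer on 129 and 3 on Cas. Counts and distances come from the same contacts, so these are not separate measurements of a difference.

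Other windows that were not called by count also differed in distance. In Tenm3, which encodes a teneurin of neuronal wiring, the window from 48700001 had 261 interactions on 129 and 275 on Cas, and its distances were 67 and 3403 kb. It adjoins the called Tenm3 window with 3627 and 1007 interactions. A window from 7650001 had 42 and 1522.5 kb and a window from 17550001 had 64 and 1179 kb. Towards longer contacts on 129, the window at the high-coordinate end of the netrin receptor gene Unc5d (29200001 to 29250000) had a distance of 1879 kb for 129 against 28 kb for Cas and counts of 599 and 1000. A window of Cdh8, a type II cadherin gene (99150001 to 99200000), had 3208.5 and 186 kb with 348 and 198 interactions. Gene-free windows from 6250001, 63800001, 98900001 and 30900001 had distances of 1039 to 3536 kb on 129 and 54 to 268 kb on Cas.

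**Figure D4:**
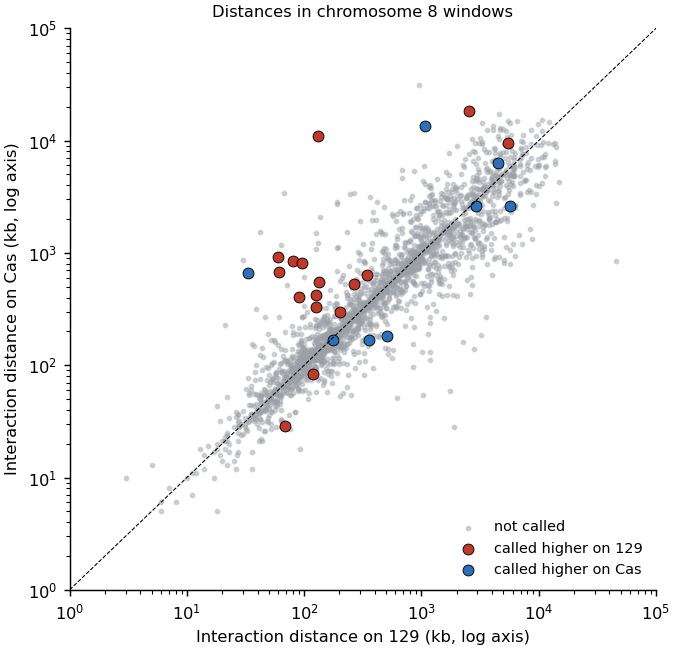
Interaction distance on Cas (vertical) against that on 129 (horizontal; kb, log axes) for the 2374 windows of chromosome 8 in which both alleles had at least 10 interactions; the dashed line marks equal distances. Windows called higher on 129 (red) lie above the line, on the side of longer distances on Cas, in 14 of 16 cases, and those called higher on Cas (blue) lie on both sides.

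Gene loci were then described by list, with each locus taken as the sum of the windows its body overlaps. The median over 912 protein-coding loci of chromosome 8 was -0.16 and 697 of them (76.4%) were below 0. Over all 18479 loci the median was -0.04 and 57.7% were below 0. The beta-binomial test over all loci called 11 loci on chromosome 8 (1.21%) against 1.36% of all loci, made up of 0.996% higher on 129 and 0.368% on Cas. Towards Cas there were 6, namely Zfp868 and 5 numbered gene models. Towards 129 there were 5, namely Bbs2, a cilium gene, Rps23rg1, Phkb, Olfr372 and Nat3. The 5 numbered models all rest on the adjoining windows from 55450001 and 55500001, so they are not separate observations. With a separate estimate of spread in each quartile of the count, neither window passed (beta-binomial adjusted p = 0.179 and 0.156). Loci were tested with a smaller overdispersion (0.0109) than windows (0.0165), so the same counts can pass as a locus and not as a window. Rps23rg1, a locus of 1 window with 3124 and 981, passed as a locus (beta-binomial adjusted p = 0.016). That window was not called (beta-binomial adjusted p = 0.142). Of 129 distinct members of the 11 lists, 98 were below 0 and 31 above. None passed the beta-binomial test after adjustment and 7 had an unadjusted p under 0.05, where 5.54% of all loci did, so single members are given as values.

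The Iroquois domain had the lowest median of the lists, at -0.49, with all 5 measured members between -0.57 and -0.42. Irx3, Irx5 and Irx6 encode homeodomain factors that pattern the neural tube and limbs and are typically silent in ES cells. Irx3 had 2091 interactions on 129 and 2230 on Cas, Irx5 had 1291 and 1397 and Irx6 had 2669 and 2607. The long gene Fto beside them, an RNA demethylase gene, had 8966 and 9048, and Rpgrip1l, a cilium gene, had 3376 and 3473. The window from 91300001 (2803 and 2908) enters the sums of both Fto and Rpgrip1l, so these loci are not separate observations. Of the 39 windows between 91 and 93 Mb, 37 were below 0, with 49418 interactions on 129 and 47877 on Cas (50.8%, 95% interval 50.5 to 51.1%). The longer distance was that of 129 in 27 of these windows and that of Cas in 12. Of the 7 windows that hold Fto and no other gene, 5 were at least 2-fold longer on 129, among them those from 91450001 (2434 and 573.5 kb) and 91500001 (1175.5 and 270 kb). These windows were singled out after their values were seen.

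Genes that ES cells depend on or are known by had a median of -0.29, with 6 of 8 measured members below 0. Over all protein-coding loci of chromosome 8 the median was -0.16, and 76.4% were below 0. Zfp42, the Rex1 gene that marks undifferentiated cells, had 2071 interactions on 129 and 2012 on Cas (-0.41). Sall1, a zinc finger factor gene, had 1862 and 2066 (-0.60) and the AP-1 gene Junb had 2941 and 3173 (-0.56). Smad1, which carries signals of bone morphogenetic proteins, had 1941 and 1817 (-0.36), and the E-cadherin gene Cdh1 had 2510 and 2130 (-0.22). Above 0 were Fgfr1, a fibroblast growth factor receptor gene, with 7091 and 4208 (0.30), and Triml2 with 2358 and 1636 (0.07). Sall1, Junb, Smad1 and Gab1 lie in the run from 68 to 100 Mb. Zfp42 and Triml2 lie in that from 29 to 44 Mb, and Cdh1 and Fgfr1 lie outside both. Klf2 was not analysed here. Among 8 cadherins, the median was -0.12, and the lowest and highest were Cdh8 (5815 and 4975, -0.23) and Cdh5, the vascular cadherin gene (2528 and 1626, 0.18).

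Genes of DNA replication and telomeres had a median of -0.10, with 9 of 12 below 0. For this and the lists that follow, the background was all protein-coding loci of chromosome 8. That background had a median of -0.16, with 76.4% of loci below 0. The telomere-binding factor gene Terf2 had 3282 interactions on 129 and 3348 on Cas (-0.48) and the tankyrase gene Tnks had 3509 and 3421 (-0.42). Of the genes that load or start the replicative helicase, Orc6 was at -0.25, Cdt1 at -0.21, Gins2 at -0.09 and Mcm5 at -0.06, while Gins4, with 6361 and 3874, was at 0.26. Chromatin regulators had a median of -0.16, with 9 of 12 below 0. They ran from the bromodomain gene Brd7 (2663 and 2612, -0.43) and the remodeller gene Chd9 (7458 and 6852, -0.33) to Ing1, a histone reader gene (2233 and 984, 0.73). Ctcf, the gene of the boundary protein, had 7994 and 6470 (-0.15). Of developmental regulators listed as silent, 10 of 11 were below 0 (median -0.19), though their expression was not part of the data used here. They ran from Tox3 (1771 and 1857, -0.52) and the heart factor gene Hand2 (1868 and 1831, -0.42) to the exception Maf (2091 and 1330, 0.20).

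Long genes differed along the chromosome. Tusc3 (2268 interactions on 129 and 2610 on Cas, -0.66), Dlc1 (6198 and 6949, -0.62) and the sarcoglycan gene Sgcz (8049 and 8402, -0.52) lie in the run from 29 to 44 Mb. Inpp4b (-0.49) and the calcium channel gene Cacna1a (-0.56) lie in the run from 68 to 100 Mb. Among those nearer to 0 within the runs were the neuregulin gene Nrg1 (-0.06) and Zfp423 (-0.10). Outside both runs, Myo16 (7832 and 3648) was at 0.65, Csmd1 and Gpm6a at 0.33 and Tenm3 at 0.25. Also outside were Fam155a (0.30), Wwox (0.07), Cntnap4 (0.01) and Galntl6 (-0.09). The runs were found in these same ratios, so lower values inside them are no separate evidence. Called windows enter some of these sums. Without them, which was tried after seeing the data, Myo16 was at 0.16, Csmd1 at -0.03, Tenm3 at -0.01 and Unc5d, at -0.34 with its called window, at -0.44. The list had a median of -0.09, with 10 of 17 below 0.

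Members of clustered gene families differed among themselves. Of 19 measured carboxylesterases, which hydrolyse esters and drugs in the liver and gut, 15 were below 0 with a median of -0.12. Ces1b had 1240 interactions on 129 and 1611 on Cas (-0.83) and Ces1d had 5136 and 2541 (0.56), and both lie in the same cluster. Of 30 measured defensins, antimicrobial peptide genes, 22 were below 0 with a median of -0.07, from Defb3 (128 and 111, -0.25) to Defb8 (131 and 58, 0.71) among loci with 100 or more interactions. Defb33, with 28 and 8, was at 1.23. These loci share windows, with 30 genes in 16 windows and 19 carboxylesterases in 18. The forkhead genes Foxf1 (-0.25), Foxc2 and Foxl1 (both -0.06, from the same window) were all below 0, as was Mthfsd beside them (-0.14). Mt1, Mt2 and Mt3, metallothionein genes that bind zinc and copper, share a window with 3678 and 3129 (-0.22), and Mt4 had 3511 and 2289 in the adjoining window (0.16).

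**Figure D5:**
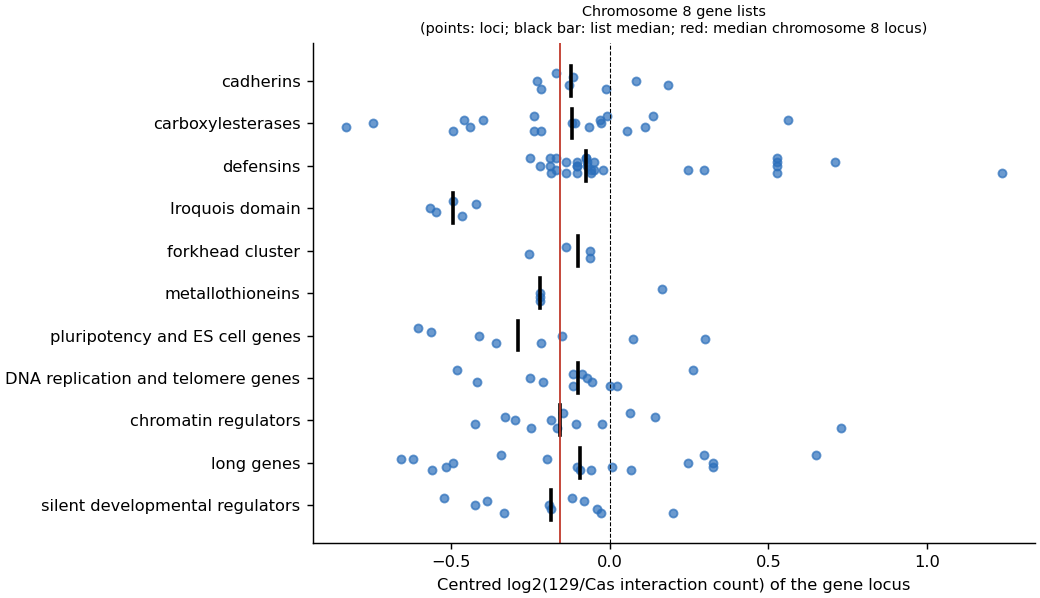
Centred log2 ratio of 129 to Cas interaction counts for loci of 11 gene lists on chromosome 8; black bars are list medians and the red line is the median chromosome 8 locus at -0.16. All 5 Iroquois domain loci lie between -0.57 and -0.42, while long genes spread from -0.66 to 0.65.

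The windows with most contacts, chosen after their counts were seen, were close to the balance of the chromosome with an exception. The window of Dhodh, a pyrimidine synthesis gene, and Pkd1l3 (109600001 to 109650000) had 9365 interactions on 129 and 5161 on Cas (64.5%, ratio 0.41). The window of Cyp4v3 and Fam149a (45300001 to 45350000) had 7871 and 6524 (-0.18). That of Retn, the resistin gene, and 4 other genes (3650001 to 3700000) had 7943 and 6408 (-0.14), and that of Cdh16, Rrad and Ciao2b (104600001 to 104650000) had 7490 and 6150 (-0.17). A window of Bean1 (104150001 to 104200000) had 7639 and 5599 (-0.01), and that of Champ1 and Coprs (13850001 to 13900000) had 7113 and 5588 (-0.11). None of the 6 was called by the beta-binomial test, and their adjusted p were all 1.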

How the data were processed

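Promoter Capture Hi-C was carried out on F121-6 ES cells in 2 samples of 1 group. Per the labels' protocols, fixation was in 2% formaldehyde, HindIII cut the chromatin and RNA baits targeted 22225 promoters. Bowtie2 and mm10 are named in the submitters' processing notes. Allele assignment, filters and merging were not given in the sources used here. Whether Cas reads were lost in mapping, which would raise every 129 share, was not tested.

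Deposited values are raw interaction counts, in whole numbers, and a distance signal deposited per allele in multiples of 500 bp. The labels of both samples name the same columns, which were therefore taken as pooled. Between the first and last window of chromosome 8, 140 positions of 50 kb were not analysed here.

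Window ratios were log2((129 + 1)/(Cas + 1)) minus the median over windows in which both alleles together reached 10. The two-sided beta-binomial test took the autosomal 129 share of 57.6% and a single maximum-likelihood overdispersion for each kind of unit (0.0165 for windows, 0.0052 for regions of 1 Mb with 50 or more interactions and 3 or more windows, 0.0109 for loci), with Benjamini-Hochberg adjustment at 0.05 over the whole table. The test was tried on simulated data. Genes were placed by RefSeq spans on GRCm38.p6, with 920 protein-coding genes in windows of chromosome 8.

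Windows were named by rule: the 8 per direction with the largest ratio among called windows with 100 or more interactions, the 6 per direction furthest apart in distance among those with at least 50 interactions on both alleles, and, in each direction, the 3 regions of 1 Mb of smallest p. From each gene list the highest and lowest members with 100 or more interactions were named, and other items were chosen after their values were seen. The members and lists were chosen with earlier results of these data known. Calculations used scipy 1.17.1, pandas 2.3.3 and numpy 2.4.6 in Python 3.11.15, and figures matplotlib 3.10.9. Alternatives changed the pseudocount, count minimum, centre, null share, threshold or test.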

Additional observations from a re-analysis of the deposited data

How the results depend on the processing

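No paired analysis was possible because the columns carry no replicate, and for the same reason no replicate could be left out. The 129 share of chromosome 8 was 55.8% without the 1% of windows with the highest counts, 56.5% in windows without a protein-coding gene, and 55.7 to 56.2% when each bin of 10 Mb was left out in turn. At a threshold of 0.01, 15 windows and 0 regions of 1 Mb were called on chromosome 8 by the beta-binomial test, and 16 of 126 regions (12.7%) had an unadjusted p under 0.05, 13 of them towards Cas, against 6.08% of all regions (3.42% towards Cas). The chromosome was chosen for that direction. Without its called windows, an alternative added after seeing the data, 0 regions were called. The exact binomial test called 1284 windows, 110 regions and 711 gene loci. The test itself differs by leaving out the spread between units. The median ratio stayed between -0.12 and -0.11 under all 6 alternatives, 10 to 12 bins of 10 Mb were below the centre, and the median distance ratio stayed between -0.0042 and 0. Among 32 ratios of named windows recomputed with another pseudocount or centre none changed direction. Depth limits what single windows show: the windows called towards Cas had a median of 318 interactions, and the overdispersion was 0.030 in the quartile of windows with the lowest counts against 0.013 to 0.014 in the others. A window that was not called may still differ.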
